A study of Mus musculus with 22 samples.

Results

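Clotting and plasminogen genes were followed in the distal colon of mice with spontaneous colitis. The 9 genes were F3, F10, F5, Tfpi, Thbd, Procr, Plau, Plaur and Plat, taken by gene symbol from a table of 46078 genes, and each matched 1 row. They were selected on the measured rise of F10 in Winnie-Prolapse colon, so their values in both comparisons of that group, counts past a limit included, are a description that supports nothing, and tests are given for Winnie against C57BL/6 and for sex.

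Poly(A) RNA was sequenced from 22 frozen pieces of distal colon, each from 1 mouse. C57BL/6 mice (n = 8, 4 males and 4 females, 14 weeks old) were wild type and served as controls. Winnie mice (n = 7, 3 males and 4 females, 14 weeks old) carry a missense mutation of the mucin gene Muc2 and develop chronic colitis without any agent given, and their tissue was labelled inflamed. Winnie-Prolapse mice (n = 7, 4 males and 3 females, 18 weeks old) were Winnie mice with prolapse whose tissue was labelled severely inflamed. Prolapse and the older age cannot be told apart in this design, and no group had treated animals. In bulk tissue, fewer cells of a type and less RNA per cell cannot be told apart either.

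Clotting starts when blood meets tissue factor, a membrane protein encoded by F3, which binds factor VII and activates factor X (F10). Activated factor X, with its cofactor factor V (F5), turns prothrombin into thrombin, and thrombin makes fibrin. The pathway is held in check by tissue factor pathway inhibitor (Tfpi), which blocks the tissue factor complex and factor X, and by thrombomodulin (Thbd) and the endothelial protein C receptor (Procr), which together turn thrombin toward activation of the anticoagulant protein C. Fibrin is removed by plasmin, which is cut from plasminogen by urokinase (Plau), held at the cell surface by its receptor (Plaur), or by tissue plasminogen activator (Plat). Most circulating clotting factors are made in the liver, whereas tissue factor is made in epithelium, stroma and activated monocytes, and activated macrophages can make factor X.

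Total counts ranged from 24.8 to 36.3 M per library, and levels are given as CPM, counts scaled to the same library total. A count of 0 still allows up to 3 counts, or 0.0825 to 0.121 CPM. Every library held colon markers, with the colonocyte transporter Slc26a3 at 129.9 CPM or more and Muc2 at 1029 CPM or more. C57BL/6 replicate 7 stood apart within its group. Its 7 neutrophil markers summed to 4.17 CPM, a sum set by Ly6g in all C57BL/6 libraries, and its 8 macrophage and monocyte markers to 90.2 CPM, the lowest sums of any C57BL/6 library, its 7 hepatocyte markers summed to 5.51 CPM against 49.8 CPM or more in the rest of the group, while its Muc2 was the highest of all libraries at 7901 CPM. In Winnie-Prolapse replicate 6, 18.0% of the counts came from 6 milk protein genes, against at most 0.00542% elsewhere. They are part of its library total and so lower the CPM of every other gene there. Of 17769 genes, 38.9% had their lowest level of the group in that library, Thbd and Tfpi among them. In Winnie-Prolapse replicate 4, all 9 clotting and plasminogen genes had their highest level of the group, while 28.0% of 17769 genes peaked in that library. Its endothelial (239.6 CPM) and neutrophil (1867 CPM) marker sums were also the highest of all libraries. These 3 libraries were left out together as a check, and values from it are given with some of the counts below.

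Because several of the genes stood higher together in Winnie-Prolapse colon, the promoter windows of those the results turn on are shown first. The windows are RefSeq entries on GRCm38.p6 and run from 250 bases before to 50 bases after a start, 5′ to 3′ on the strand of the gene. Of the 9 genes, 6 had an entry, Tfpi with 2 starts, and Plau, Plat and Thbd had none. Capitals mark matches to 5 motifs searched on both strands. The AP-1 motif was searched as TGANTCA. The GC box was searched as GGGCGG. The TATA box was searched as TATAAA. The STAT motif was searched as TTCNNNGAA, and the NF-kappaB motif by its name. F3, Plaur and Procr are shown for their AP-1 match, F10 as the gene with the largest difference, and Tfpi as the gene that stood lower in Winnie-Prolapse than in C57BL/6.
F3, chr3:121723287-121723586, plus strand: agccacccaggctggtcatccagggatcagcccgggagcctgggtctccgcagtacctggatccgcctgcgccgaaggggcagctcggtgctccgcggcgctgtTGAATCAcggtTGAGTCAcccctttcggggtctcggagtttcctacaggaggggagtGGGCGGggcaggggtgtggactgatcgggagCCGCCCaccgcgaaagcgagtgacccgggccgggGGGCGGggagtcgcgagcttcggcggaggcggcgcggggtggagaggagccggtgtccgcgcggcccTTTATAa
Plaur, chr7:24462233-24462532, plus strand: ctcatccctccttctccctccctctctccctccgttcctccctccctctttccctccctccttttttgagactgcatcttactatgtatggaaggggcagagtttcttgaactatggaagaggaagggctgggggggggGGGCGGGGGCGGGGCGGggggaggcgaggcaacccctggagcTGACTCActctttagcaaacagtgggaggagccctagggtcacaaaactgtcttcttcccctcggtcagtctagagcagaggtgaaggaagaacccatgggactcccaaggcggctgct
Procr, chr2:155750967-155751266, plus strand: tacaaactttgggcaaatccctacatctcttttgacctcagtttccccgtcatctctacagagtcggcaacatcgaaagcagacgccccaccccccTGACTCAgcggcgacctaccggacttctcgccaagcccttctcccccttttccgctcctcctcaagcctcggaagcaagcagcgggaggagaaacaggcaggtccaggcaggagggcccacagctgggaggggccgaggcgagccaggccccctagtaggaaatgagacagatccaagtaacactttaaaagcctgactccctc
F10, chr8:13037058-13037357, plus strand: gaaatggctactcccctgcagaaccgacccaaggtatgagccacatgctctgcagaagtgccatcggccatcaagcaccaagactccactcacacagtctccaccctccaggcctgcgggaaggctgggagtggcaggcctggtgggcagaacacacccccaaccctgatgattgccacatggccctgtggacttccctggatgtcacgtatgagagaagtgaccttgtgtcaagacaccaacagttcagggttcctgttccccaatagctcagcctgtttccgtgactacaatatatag
Tfpi, chr2:84476710-84477009, minus strand: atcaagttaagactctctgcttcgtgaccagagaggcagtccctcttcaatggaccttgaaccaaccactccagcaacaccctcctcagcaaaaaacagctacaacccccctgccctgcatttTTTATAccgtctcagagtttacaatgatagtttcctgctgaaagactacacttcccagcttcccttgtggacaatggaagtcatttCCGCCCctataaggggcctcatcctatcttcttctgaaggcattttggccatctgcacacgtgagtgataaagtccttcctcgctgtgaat

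F3 held 2 AP-1 matches, TGAATCA beginning 146 bases and TGAGTCA beginning 135 bases before the start. In Plaur the match TGACTCA began 69 bases before the start, after 3 adjoining or overlapping GC boxes, and in Procr the same letters began 154 bases before the start. AP-1 matches were thus in 3 of the 7 windows of these genes, against 7.81% of all 32851 windows. The 7 windows belong to 6 genes selected on the measured rise of F10, so nothing is read from this share. The F10 window held none of the 5 motifs, which says only that these letters are not in it. Other matches in the windows shown were GC boxes in F3 and Tfpi and a TATA box on the opposite strand in each of these 2 genes. GC boxes were in 35.7% of all windows, TATA boxes in 13.6%, STAT motifs in 8.3% and NF-kappaB motifs in 8.46%. A match is a description of letters and was not tied to any change in level.

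F3 (ENSMUSG00000028128, chromosome 3, 121723537 to 121735048, plus strand), the initiator of clotting, was readily counted in every library. C57BL/6 libraries held from 25.4 to 91.4 CPM with a median of 55.2 CPM, and Winnie libraries from 38.0 to 70.9 CPM with a median of 44.9 CPM. Winnie-Prolapse libraries held from 49.2 to 284 CPM with a median of 109 CPM. The 3 ranges overlapped, and 5 of 7 Winnie-Prolapse libraries lay above every C57BL/6 and every Winnie library. Winnie-Prolapse had a log2 fold change of 1.20 ± 0.32 (SE) against C57BL/6 and 1.38 ± 0.31 (SE) against Winnie. Between Winnie and C57BL/6 it was -0.18 ± 0.21 (SE), with an adjusted p of 0.558 (edgeR quasi-likelihood test, Benjamini-Hochberg adjustment over 17289 genes).

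**Figure D1:**
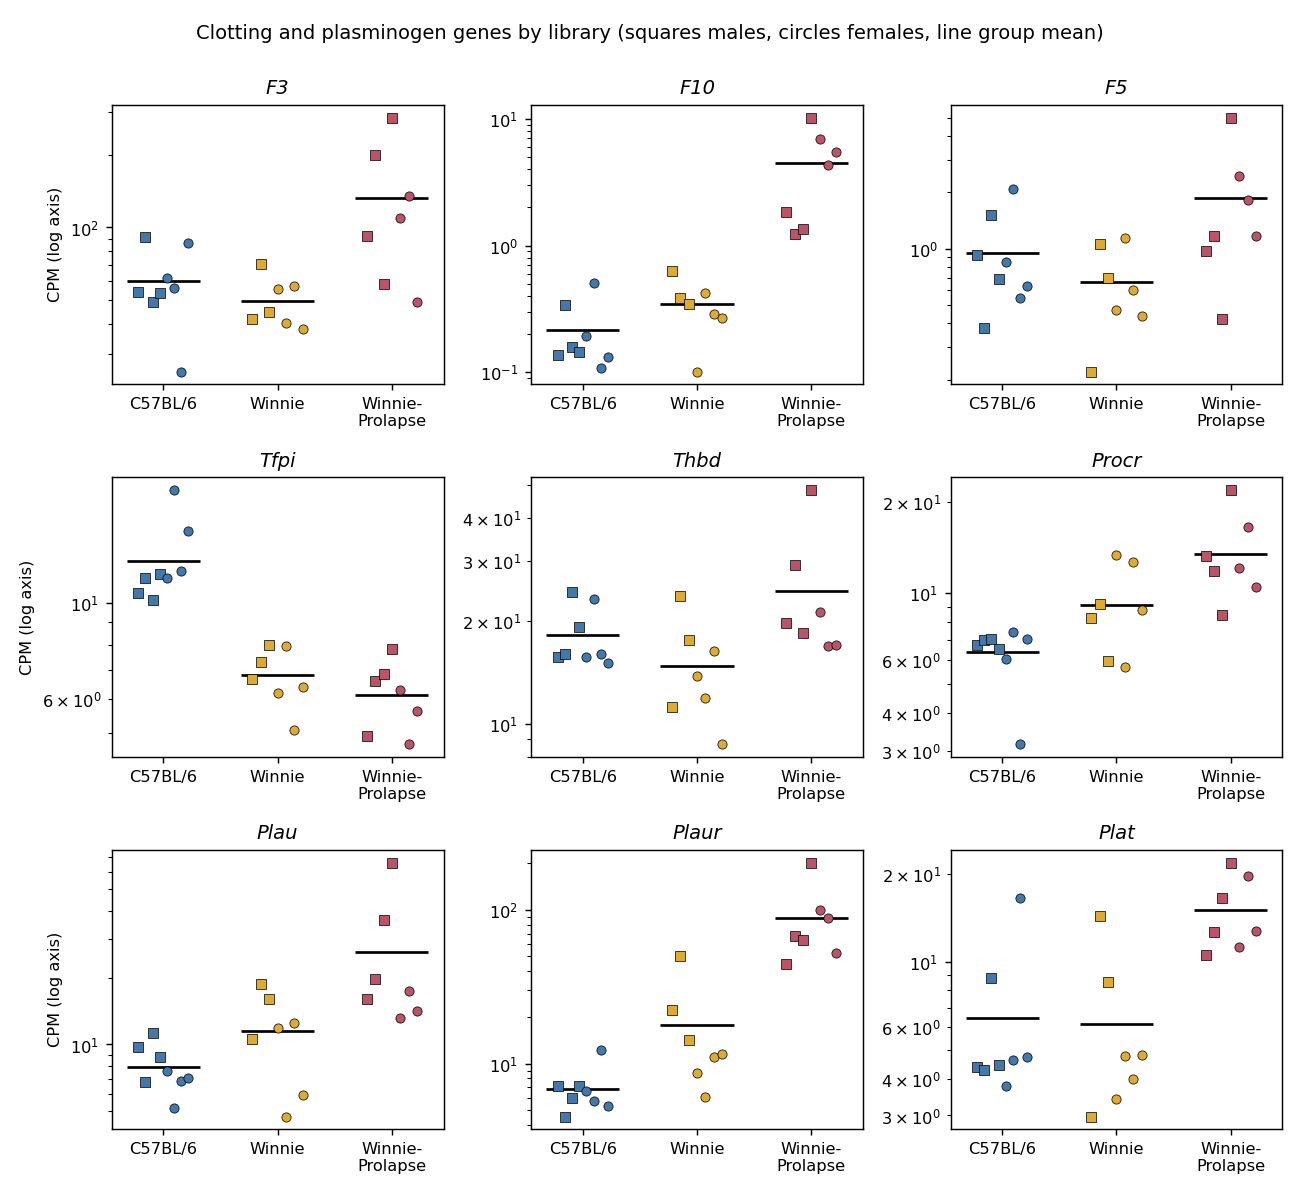
CPM of each of the 9 genes in every library on log axes, in panels, for C57BL/6 (n = 8), Winnie (n = 7) and Winnie-Prolapse (n = 7). Squares are males, circles females and lines group means. F10 in Winnie-Prolapse (1.23 to 10.2 CPM) lies above all other libraries, and Tfpi lies lower in both Winnie groups than in any C57BL/6 library.

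F10 (ENSMUSG00000031444, chromosome 8, 13037308 to 13056676, plus strand) encodes the protease that makes thrombin, and its transcript was near the limit of detection outside Winnie-Prolapse. C57BL/6 libraries held 3 to 13 F10 counts, or 0.109 to 0.511 CPM with a median of 0.152 CPM. Winnie libraries held 3 to 23 counts, or 0.101 to 0.633 CPM with a median of 0.347 CPM. Winnie-Prolapse libraries held 38 to 309 counts, or 1.23 to 10.2 CPM with a median of 4.35 CPM. The Winnie-Prolapse values did not overlap with either other group, whereas Winnie and C57BL/6 overlapped. Within Winnie-Prolapse, all 3 females held at least 4.35 CPM, and 3 of 4 males held at most 1.83 CPM, the remaining male being replicate 4 with 10.2 CPM.

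For F10 in Winnie-Prolapse the log2 fold change was 4.43 ± 0.52 (SE) against C57BL/6 and 3.65 ± 0.52 (SE) against Winnie, the largest of the 9 genes in both comparisons. Leaving out any 1 library moved these values within 4.15 to 4.74 and 3.36 to 3.87. In Winnie against C57BL/6 the gene did not pass the filter on low counts. With no filter its log2 fold change was 0.79 ± 0.39 (SE, adjusted p = 0.185, edgeR quasi-likelihood test), and with DESeq2 0.80 (adjusted p = 0.146).

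Markers of macrophages and monocytes, of neutrophils and of squamous epithelium all had group medians in the same order as F10. Between C57BL/6 and Winnie, the neutrophil sums rested mainly on Ly6g (means 257 and 420 CPM, edgeR adjusted p = 0.239). Sprr1a led the squamous sums in both groups. For Krt14, 4 of 7 Winnie libraries lay below every C57BL/6 library and 1 lay above all of them. At an adjusted p under 0.05 and 1.5-fold (edgeR), 2 of 3 neutrophil and 1 of 3 squamous markers tested were higher in Winnie. Their C57BL/6 means were at most 0.803 CPM. The 8 macrophage and monocyte markers, led by Lyz2 in the mean over all libraries, summed to 90.2 to 222 CPM in C57BL/6 (153 or more without replicate 7), 160 to 357 CPM in Winnie and 264 to 717 CPM in Winnie-Prolapse, and 7 of 8 rose in Winnie-Prolapse against C57BL/6. The 7 hepatocyte markers summed to 5.51 to 73.7 CPM in C57BL/6 (49.8 or more without replicate 7), 75.1 to 117 CPM in Winnie and 39.7 to 61.7 CPM in Winnie-Prolapse. Ttr led them over all libraries, and in Winnie-Prolapse Cps1 did. Of these markers, Serpina1a and Ahsg had at most 3 counts in every library, and 0 of 4 tested were called in Winnie-Prolapse against C57BL/6 (edgeR; 2 at an unadjusted p under 0.05). These 2 went opposite ways, Cps1 by 1.94 ± 0.47 (SE, edgeR adjusted p = 0.00279) and Ttr by -1.13 ± 0.42 (SE, edgeR adjusted p = 0.0328) on the log2 scale. The part of any of these markers in the F10 level was not tested.

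F5 (ENSMUSG00000026579, chromosome 1, 164151838 to 164220277, plus strand), the cofactor of factor X, was low in all groups. C57BL/6 libraries held 0.376 to 2.08 CPM with a median of 0.768 CPM, Winnie libraries 0.220 to 1.15 CPM with a median of 0.604 CPM, and Winnie-Prolapse libraries 0.424 to 5.02 CPM with a median of 1.18 CPM. All 3 ranges overlapped, and the Winnie-Prolapse mean of 1.86 ± 1.54 CPM (SD, n = 7) came to 1.33 CPM without replicate 4. The fitted level in Winnie-Prolapse was 2.01-fold that of C57BL/6 (SE 0.45 on the log2 scale) and 2.78-fold that of Winnie (SE 0.46). Winnie differed from C57BL/6 by -0.47 ± 0.38 (SE) on the log2 scale (edgeR adjusted p = 0.380). An exon of F5 overlaps the antisense gene Gm16548, and the strand setting of the counting was not given in the sources used here, so its counts are uncertain.

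Tfpi (ENSMUSG00000027082, chromosome 2, 84432855 to 84476775, minus strand), the inhibitor of the tissue factor complex, was the only 1 of the 9 with a lower fitted level in Winnie-Prolapse than in C57BL/6. C57BL/6 libraries held 10.1 to 18.2 CPM with a median of 11.5 CPM, Winnie libraries 5.09 to 7.98 CPM with a median of 6.66 CPM, and Winnie-Prolapse libraries 4.71 to 7.83 CPM with a median of 6.28 CPM. All 7 Winnie and all 7 Winnie-Prolapse libraries lay below every C57BL/6 library, while the Winnie and Winnie-Prolapse values overlapped. Tfpi also varied least among the 9 genes, with a pooled SD within groups of 0.22 on the log2 CPM scale against 0.39 to 0.85 for the others.

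Between Winnie and C57BL/6, Tfpi differed by -0.80 ± 0.13 (SE) on the log2 scale, with an adjusted p of 0.00186 (edgeR quasi-likelihood test), which missed the study's limit of 0.001. The adjusted p was 0.000673 to 0.00556 on leaving out each library in turn, and Tfpi passed the limit without Winnie replicate 5, with DESeq2 and with all 3 groups in one fit. Over all genes, these settings called 677 of 17413, 1258 of 29288 and 199 of 17769, against 16 of 17289 in the main fit. Among all 17289 genes tested, 1.17% lay lower in Winnie with no overlap. Winnie-Prolapse differed from C57BL/6 by -0.95 ± 0.14 (SE) and from Winnie by -0.14 ± 0.12 (SE) on the log2 scale. Smooth muscle markers, led by Myh11 over all libraries, also stood lower, with sums of 6686 to 12048 CPM in C57BL/6, 1986 to 7309 CPM in Winnie and 1309 to 3178 CPM in Winnie-Prolapse. All 6 fell in Winnie-Prolapse against C57BL/6, and their part in the Tfpi level was not tested.

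Levels of F3 and Tfpi were set side by side per length, as CPM per kilobase of merged exons. The ratio of F3 to Tfpi ranged from 4.63 to 17.3 in C57BL/6 with a median of 10.8, from 10.9 to 24.4 in Winnie with a median of 13.6, and from 18.5 to 78.5 in Winnie-Prolapse with a median of 40.7. Every Winnie-Prolapse library lay above every C57BL/6 library, and Winnie overlapped with both. The lowest C57BL/6 ratio was that of replicate 7, which also had the lowest F3. The ratio is of transcripts, with no measure of either protein.

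**Figure D2:**
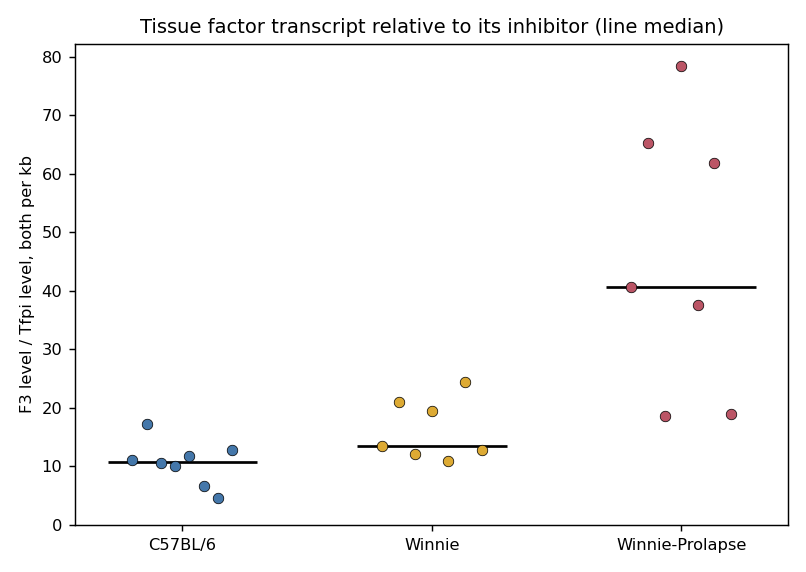
Ratio of the F3 level to the Tfpi level per library, both as CPM per kilobase of merged exons, by group (points are libraries, lines medians, linear axis from 0). The median is 10.8 for C57BL/6, 13.6 for Winnie and 40.7 for Winnie-Prolapse libraries.

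Thbd and Procr, the pair of receptors of the protein C pathway, differed in their pattern over the groups. Thbd (ENSMUSG00000074743, chromosome 2, 148404466 to 148408188, minus strand) held 15.1 to 24.2 CPM in C57BL/6 with a median of 16.0 CPM, 8.70 to 23.6 CPM in Winnie with a median of 13.8 CPM, and 16.9 to 48.2 CPM in Winnie-Prolapse with a median of 19.8 CPM. All groups overlapped, although 4 of 7 Winnie libraries lay below every C57BL/6 library. The log2 fold change was -0.23 ± 0.18 (SE) in Winnie against C57BL/6 (edgeR adjusted p = 0.356). Winnie-Prolapse differed by 0.48 ± 0.19 (SE) from C57BL/6 and by 0.71 ± 0.23 (SE) from Winnie.

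Procr (ENSMUSG00000027611, chromosome 2, 155751117 to 155755471, plus strand), the receptor that presents protein C, held 3.15 to 7.43 CPM in C57BL/6 with a median of 6.85 CPM. Winnie libraries held 5.68 to 13.3 CPM with a median of 8.77 CPM, and Winnie-Prolapse libraries 8.44 to 21.9 CPM with a median of 12.1 CPM. The Winnie-Prolapse range did not overlap with C57BL/6, whereas the Winnie range overlapped with both, with 5 of 7 libraries above every C57BL/6 library. The lowest value was that of C57BL/6 replicate 7, and the other 7 lay between 6.02 and 7.43 CPM.

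Between Winnie and C57BL/6, Procr differed by 0.62 ± 0.22 (SE) on the log2 scale, with an adjusted p of 0.0513 (edgeR quasi-likelihood test). It ranged from 0.50 to 0.72 on leaving out each library, with adjusted p from 0.0186 to 0.115. Winnie-Prolapse differed by 1.17 ± 0.20 (SE) from C57BL/6 and by 0.55 ± 0.25 (SE) from Winnie. The 8 endothelial markers, led by Pecam1, summed to 59.0 to 78.7 CPM in C57BL/6 libraries, 37.7 to 157 CPM in Winnie libraries and 81.0 to 239.6 CPM in Winnie-Prolapse libraries. Of these, 2 rose in Winnie-Prolapse against C57BL/6, Cdh5 and Eng, where 9.84% of all genes rose. At an adjusted p under 0.05 and 1.5-fold (edgeR) 4 were higher. Tek (-0.11 ± 0.18 (SE)) and Cldn5 (-0.11 ± 0.22 (SE)) lay below 0 on the log2 scale. The part of the endothelial markers in the Thbd and Procr levels was not tested.

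Plau (ENSMUSG00000021822, chromosome 14, 20836660 to 20843385, plus strand), which encodes urokinase, held 5.15 to 11.3 CPM in C57BL/6 with a median of 7.34 CPM. Winnie libraries held 4.72 to 18.7 CPM with a median of 11.8 CPM, and Winnie-Prolapse libraries 13.2 to 66.1 CPM with a median of 17.4 CPM. No Winnie-Prolapse library overlapped with C57BL/6, whereas the Winnie range overlapped with both, with 4 of 7 libraries above every C57BL/6 library. The log2 fold change was 0.61 ± 0.25 (SE) in Winnie against C57BL/6 (edgeR adjusted p = 0.0835). Winnie-Prolapse differed by 1.79 ± 0.32 (SE) from C57BL/6 and by 1.19 ± 0.39 (SE) from Winnie.

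Plaur (ENSMUSG00000046223, chromosome 7, 24462484 to 24475968, plus strand), the urokinase receptor, held 4.51 to 12.3 CPM in C57BL/6 with a median of 6.32 CPM. Winnie libraries held 6.07 to 50.1 CPM with a median of 11.5 CPM, and Winnie-Prolapse libraries 44.1 to 202 CPM with a median of 67.3 CPM. Winnie-Prolapse lay wholly above C57BL/6, and 1 Winnie library, replicate 2 with 50.1 CPM, reached its range. In C57BL/6 the highest library was replicate 7, and without it the others lay at or below 7.19 CPM.

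Plaur in Winnie stood 1.43 ± 0.37 (SE) higher than in C57BL/6 on the log2 scale, with an adjusted p of 0.0131 (edgeR quasi-likelihood test), short of the limit of 0.001. Without Winnie replicate 2 it was 0.94 ± 0.27 (SE, adjusted p = 0.0305). Winnie-Prolapse differed by 3.74 ± 0.31 (SE) from C57BL/6 and by 2.33 ± 0.45 (SE) from Winnie, the second largest difference of the 9 genes in both comparisons. The 7 neutrophil markers, led by Ly6g, summed to 4.17 to 359 CPM in C57BL/6, or 243 or more without replicate 7, 312 to 651 CPM in Winnie and 530 to 1867 CPM in Winnie-Prolapse, where 5 of 6 tested rose against C57BL/6. Of these, S100a8, S100a9, Retnlg and Mmp8 had C57BL/6 means of at most 0.204 CPM. They passed the filter only through their Winnie-Prolapse libraries, so nothing is read from their calls. Ly6g makes up nearly all of the sum in C57BL/6 and is the marker that did not pass (1.02 ± 0.51 (SE), edgeR adjusted p = 0.104), whereas S100a8 went from at most 0.617 CPM in C57BL/6 to 21.4 CPM or more in Winnie-Prolapse. The part of these markers in the Plaur level, and that of the macrophage and monocyte markers given above, was not tested.

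Plat (ENSMUSG00000031538, chromosome 8, 22757727 to 22782844, plus strand), which encodes tissue plasminogen activator, held 3.78 to 16.6 CPM in C57BL/6 with a median of 4.54 CPM. Winnie libraries held 2.97 to 14.4 CPM with a median of 4.79 CPM, and Winnie-Prolapse libraries 10.6 to 21.8 CPM with a median of 12.7 CPM. The ranges overlapped through C57BL/6 replicate 7 and Winnie replicate 2, the highest library of each group. Winnie differed from C57BL/6 by -0.03 ± 0.38 (SE) on the log2 scale (edgeR adjusted p = 0.967), and the value was 0.33 without C57BL/6 replicate 7. Winnie-Prolapse differed by 1.31 ± 0.33 (SE) from C57BL/6 and by 1.35 ± 0.32 (SE) from Winnie, and by 1.69 from C57BL/6 without that library.

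**Figure D3:**
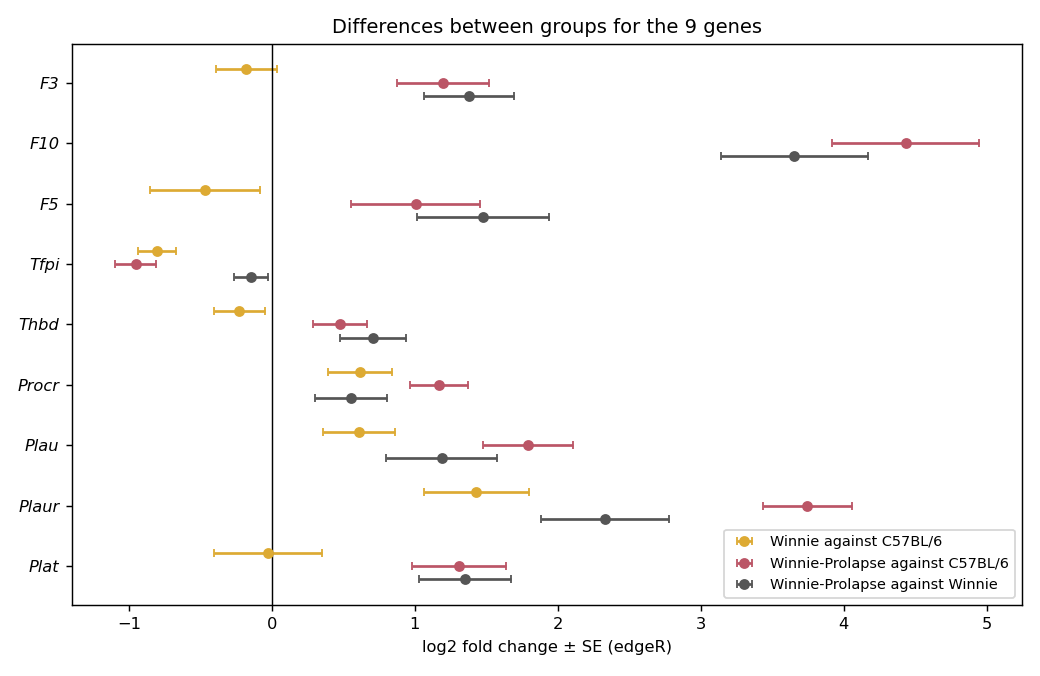
Log2 fold change ± SE (edgeR) of the 9 genes for the 3 comparisons of the groups, coloured as in the key, with a line at 0. F10 (4.43) and Plaur (3.74) lie farthest to the right in Winnie-Prolapse against C57BL/6, and Tfpi lies left of 0 in all 3 comparisons. F10 has no point for Winnie against C57BL/6, where it did not pass the low-count filter.

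Counted over the genes, Winnie against C57BL/6 gave 0 of 8 calls at an adjusted p under 0.001 and a change of at least 1.5-fold (edgeR), the limits set by the study, with 0.0925% of all 17289 genes called. That share depended on single libraries, with 0 genes called without C57BL/6 replicate 1 and 677 of 17413 without Winnie replicate 5. At an unadjusted p under 0.05 there were 4 of 8 (Plau, Plaur, Procr and Tfpi), against 39.9% of all genes. With the limit on adjusted p raised to 0.05, 2 of 8 passed, Plaur higher and Tfpi lower, against 15.9% of all genes. DESeq2 called Tfpi at the limits of the study, with 1258 of 29288 genes called in all. With limma-voom 0 of the 8 were called, and 0 of all 17289 genes.

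In Winnie-Prolapse against C57BL/6, all 9 passed the filter, F10 only through its Winnie-Prolapse libraries, and 5 were past the limits, F10, Plau, Plaur and Procr higher and Tfpi lower, with 18.3% of all 17397 genes called. F10 is among them by choice, and nothing is read from this count. The same 5 genes were those with no overlap between the groups, which held for 16% of all genes. This is the contrast the genes were chosen with. Without C57BL/6 replicate 7 the count was 6, with Plat added and 3478 of 17295 genes called in all. Without the 3 libraries named above it was 5, with Plat in place of Plau, as with limma-voom, and 2673 of 17580 genes called in all. With at least 10 counts required in every library, F10 could not be tested and 4 remained, with 2548 of 14814 genes called in all. Set against Winnie, Winnie-Prolapse had 0 of 9 genes past the limits, as were 0% of all 17041 genes, although 27.8% were at an unadjusted p under 0.05. With the limit on adjusted p raised to 0.05, 4 of the 9 passed (F10, F3, Plaur and Plat, all higher), with 6.99% of all genes past it. DESeq2 called 4 at the limits of the study, with 678 of 29471 genes called in all. Without the 3 libraries named above, only 72 of 17364 genes in all were past the raised limit. These counts too are on libraries the genes were chosen with. F10 alone did not overlap between these 2 groups, against 0.411% of all genes lying higher with no overlap. Both comparisons with C57BL/6 share the control libraries.

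Per length, F3 had the highest mean of the 9 genes in each group, at 23.7 ± 8.32 CPM per kilobase (SD, n = 8) in C57BL/6. Its level per length was 19.7 ± 4.73 in Winnie mice (SD, n = 7) and reached 52.4 ± 33.1 in Winnie-Prolapse mice (SD, n = 7). In C57BL/6 it was followed, as mean ± SD, by Thbd (4.86 ± 0.984), Plau (3.34 ± 0.816), Procr (3.13 ± 0.672), Plaur (2.62 ± 0.914), Tfpi (2.28 ± 0.488), Plat (1.03 ± 0.701), F5 (0.128 ± 0.0770) and F10 (0.0791 ± 0.0512). Per kilobase of the longest transcript, Procr (3.96) and Plaur (3.41) came before Plau (3.37), and Plat was at 1.60. The neighbours from Plau to Tfpi differed by less than their SD, as did F5 and F10. In Winnie-Prolapse, Plaur came next at 33.7 ± 20.6 CPM per kilobase, within the SD of F3 and above it in replicates 3 and 7, then Plau, Procr, Thbd, Plat, F10, Tfpi and F5. Plaur was thus nearer the top than in C57BL/6, F10 at 1.64 ± 1.23 stood above Tfpi at 1.12 ± 0.203 within its SD, and F5 was lowest at 0.251 ± 0.207.

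**Figure D4:**
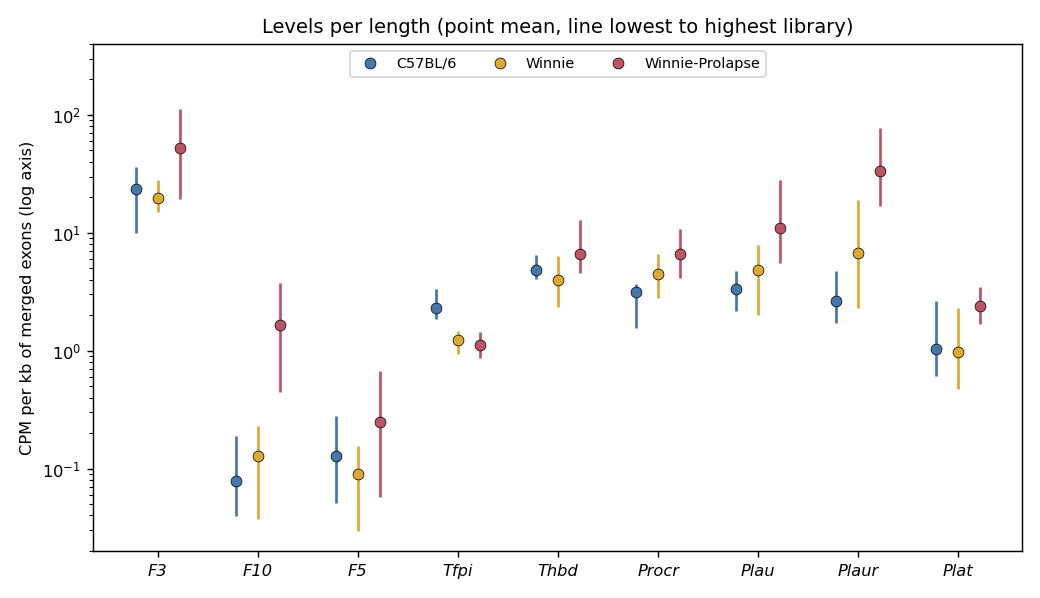
Level of the 9 genes as CPM per kilobase of merged exons on a log axis, by group (points are means, lines run from the lowest to the highest library). F3 has the highest mean in all 3 groups, Plaur reaches a mean of 33.7 in Winnie-Prolapse, and F10 is at 0.0791 in C57BL/6 and 1.64 in Winnie-Prolapse.

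Males and females were compared in 1 fit of the 22 libraries that also held the group. Of the 9 genes, 0 were called (edgeR), with 0.0658% of 18236 genes called. Plau was the only 1 of the 9 at an unadjusted p under 0.05, and 4.49% of all genes were. Its level was 9.13 ± 1.89 CPM (SD, n = 4) in male and 6.67 ± 1.06 CPM (SD, n = 4) in female C57BL/6 mice. In Winnie it was 15.1 ± 4.19 CPM (SD, n = 3) in males and 8.75 ± 3.99 CPM (SD, n = 4) in females, and in Winnie-Prolapse 34.6 ± 22.8 CPM (SD, n = 4) and 14.9 ± 2.22 CPM (SD, n = 3). The male mean was thus higher in all 3 groups, with a log2 fold change of 0.71 ± 0.23 (SE), which did not survive adjustment (edgeR quasi-likelihood test, adjusted p = 0.964).

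The sex by group interaction was past an adjusted p of 0.05 for 0 of the 9 genes in Winnie against C57BL/6, where 0.247% of 18233 genes were, and for 0 in Winnie-Prolapse against C57BL/6, where 0% of 18722 genes were. Plaur had the lowest unadjusted p in the former (edgeR, 1.78 ± 0.55 (SE) on the log2 scale, adjusted p = 0.125). Plaur in Winnie was 28.9 ± 18.8 CPM (SD, n = 3) in males, replicate 2 among them, and 9.33 ± 2.50 CPM (SD, n = 4) in females, whereas in C57BL/6 it was 6.21 ± 1.26 CPM (SD, n = 4) and 7.49 ± 3.27 CPM (SD, n = 4). F10 differed by -0.20 ± 0.39 (SE) on the log2 scale between males and females (edgeR adjusted p = 0.979), and its interaction in Winnie-Prolapse was -0.52 ± 1.03 (SE).

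Markers of other cells of the tissue are given for the same libraries. The 7 platelet and megakaryocyte markers summed to 7.61 to 24.9 CPM in C57BL/6 libraries, 9.18 to 23.6 CPM in Winnie libraries and 8.42 to 142 CPM in Winnie-Prolapse libraries, with 1 of 5 tested, Gp1bb, risen in Winnie-Prolapse against C57BL/6. At an adjusted p under 0.05 and 1.5-fold (edgeR), Ppbp, which passed the filter only with its Winnie-Prolapse libraries, was also higher and Gp6 and Itga2b were lower. The highest sum was that of Winnie-Prolapse replicate 2, and the next was 50.8 CPM. Ppbp led the list in Winnie-Prolapse (0.719 to 122 CPM) and Pf4 in both other groups. The 6 fibroblast markers, led by Col3a1, ranged from 777 to 1038 CPM in C57BL/6 with a median of 934 CPM, from 485 to 1572 CPM in Winnie with a lower median of 648 CPM, and from 632 to 2133 CPM in Winnie-Prolapse with a median of 1359 CPM, with 0 of 6 called against C57BL/6 in Winnie-Prolapse (edgeR; 4 at an unadjusted p under 0.05). Colonic epithelium markers, 8 in number and led by Slc26a3 over all libraries, summed to 9364 to 13571 CPM in C57BL/6, 6644 to 13649 CPM in Winnie and 4495 to 10380 CPM in Winnie-Prolapse, and 2 of 8, Slc26a3 and Car1, fell in Winnie-Prolapse against C57BL/6. At an adjusted p under 0.05 and 1.5-fold, 4 were lower there and Krt20 was higher. Squamous epithelium markers summed to 3.78 to 47.5 CPM in C57BL/6, 6.23 to 112 CPM in Winnie and 106 to 2940 CPM in Winnie-Prolapse, where 4 of 4 tested rose against C57BL/6. Of the 4, Krt5 and Krt13 had C57BL/6 means of 0.277 and 0.223 CPM. Both passed the filter only with their Winnie-Prolapse libraries, so nothing is read from their calls. For Krt5, 5 of 7 Winnie-Prolapse libraries lay above every C57BL/6 library and 2 lay below all of them. Sprr1a led the squamous markers in C57BL/6 and Winnie, and Krt14 in Winnie-Prolapse, where it ranged from 0.847 to 1107 CPM and Sprr1a from 102 to 289 CPM. Their part in the levels of the clotting and plasminogen genes was not tested.

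The rest of the pathway was described with 45 further genes. Transcripts of fibrinogen and plasminogen were at or near 0. Fga, Fgb and Fgg, the chains of fibrinogen, held at most 0.121 CPM in any library, and Plg, which encodes plasminogen, at most 0.0386 CPM, which is within the limit of 3 counts. F7, which encodes the partner of tissue factor, held 0.108 to 0.393 CPM in C57BL/6, 0.0386 to 0.295 CPM in Winnie and 0.0970 to 0.920 CPM in Winnie-Prolapse, and was not tested. Of 15 clotting factors and cofactors, 12 did not pass the filter in any of the 3 comparisons. The remaining ones were F13a1, F8 and Vwf, the last, which encodes von Willebrand factor, at 11.5 ± 2.94 CPM in C57BL/6 (SD, n = 8) and 21.7 ± 8.82 CPM in Winnie-Prolapse (SD, n = 7). Vwf was named after its values were seen, and its difference of 0.997 ± 0.216 (SE) on the log2 scale missed the limit (edgeR adjusted p = 0.00127), with 6 of 7 Winnie-Prolapse libraries above every C57BL/6 library.

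In Winnie against C57BL/6, 25 of the 45 genes were tested and 0 were called (edgeR), with 11 at an unadjusted p under 0.05, where 39.9% of all genes were. Their median log2 fold change was -0.05, against -0.01 over all genes. At an adjusted p under 0.05 and 1.5-fold, 1 was higher and 3 were lower, or 4 of 25, which is near the 15.9% of all genes given above. These were Lman1, a carrier of factors V and VIII, at 0.66 ± 0.12 (SE, edgeR adjusted p = 0.00355), Vkorc1, an enzyme of the vitamin K cycle, at -0.86 ± 0.18 (SE, edgeR adjusted p = 0.00556), F13a1, which encodes the A subunit of the fibrin crosslinking enzyme factor XIII, at -0.89 ± 0.32 (SE, edgeR adjusted p = 0.0499), and Serpine2, an inhibitor of thrombin and plasminogen activators, at -1.01 ± 0.34 (SE, edgeR adjusted p = 0.0419). All overlapped between the groups.

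In Winnie-Prolapse against C57BL/6, 26 of the 45 were tested, the same 25 and Serpina10, which passed the filter only with its Winnie-Prolapse libraries. Of these, 7 rose and 1 fell (edgeR adjusted p under 0.001 and at least 1.5-fold, against 9.84% and 8.47% of all genes). Their median log2 fold change was 0.32, against -0.01 over all genes. Of the 5 genes of factor processing, 3 rose and 1 fell. Furin, a protease that cuts precursor proteins, held 88.6 ± 9.12 CPM in C57BL/6 (SD, n = 8) and rose to 210.1 ± 118 CPM (SD, n = 7), or by 1.30 ± 0.22 (SE) on the log2 scale (edgeR adjusted p = 0.000195). Lman1 and Mcfd2, which together carry factors V and VIII out of the endoplasmic reticulum, rose by 0.97 ± 0.16 (SE, edgeR adjusted p = 0.000186) and 0.88 ± 0.12 (SE, edgeR adjusted p = 3.93e-05). Vkorc1, the enzyme that recycles vitamin K for the vitamin K dependent factors, fell by 1.15 on the log2 scale (SE 0.17, edgeR adjusted p = 5.02e-05). C57BL/6 libraries averaged 12.2 ± 2.11 CPM of Vkorc1 (SD, n = 8) and Winnie-Prolapse libraries 5.11 ± 1.10 CPM (SD, n = 7), with no overlap.

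The plasminogen receptor subunits Anxa2 and S100a10 rose in the same comparison. Anxa2 was at 524 ± 66.8 CPM in C57BL/6 (SD, n = 8) and reached 1141 ± 209.5 CPM (SD, n = 7), with no overlap, a log2 fold change of 1.20 ± 0.11 (SE, edgeR adjusted p = 7.07e-07). S100a10 changed by 0.59 ± 0.12 (SE, edgeR adjusted p = 0.000662). Anxa5, a phospholipid-binding protein that shields membranes from clotting, rose by 0.70 ± 0.09 (SE, edgeR adjusted p = 2.04e-05). Serpina10, an inhibitor of activated factor X, was past the limits at 3.54 ± 0.55 (SE, edgeR adjusted p = 9.08e-05) from a low level of 0 to 0.347 CPM in C57BL/6 to 0.242 to 1.73 CPM in Winnie-Prolapse. Having passed the filter through the group where it was high, it had to differ. It lies below the level set for named genes and was singled out after its values were seen.

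Serpine2 at 1.01 ± 0.52 (SE, edgeR adjusted p = 0.113) and F13a1 at 0.51 ± 0.39 (SE, edgeR adjusted p = 0.280) did not pass in Winnie-Prolapse against C57BL/6, and both overlapped between the groups. In males alone and in females alone 0 of the pathway genes were called in either direction, where 307 of 17394 genes and 255 of 17562 genes were called in all.

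**Figure D5:**
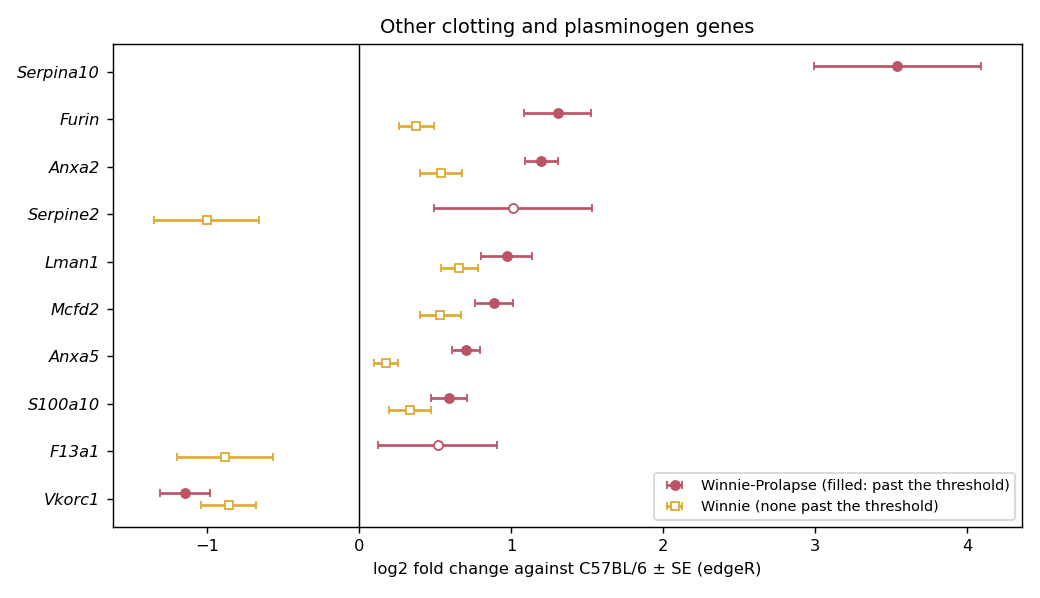
Log2 fold change ± SE (edgeR) against C57BL/6 for the 8 other clotting and plasminogen genes past the limits and for F13a1 and Serpine2, in Winnie-Prolapse (circles, filled where past the limits) and Winnie (squares, none past the limits), with a line at 0. Serpina10 has no square, since it was not tested in Winnie. The 8 filled circles run from Serpina10 (3.54) to Vkorc1 (-1.15) and those of F13a1 (0.51) and Serpine2 (1.01) are open.

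Between Winnie-Prolapse and Winnie, 26 of the 45 could be tested and 0 passed the limits (edgeR). At an unadjusted p under 0.05 there were 13, with 27.8% of all genes, and the median log2 fold change was 0.18, against 0.01 over all genes. DESeq2 called 3 higher, with 503 of 29471 genes called higher in all. Serpine2 differed by 2.03 ± 0.54 (SE, edgeR adjusted p = 0.0345) and F13a1 by 1.40 ± 0.39 (SE, edgeR adjusted p = 0.0393). For Anxa2, every Winnie-Prolapse library lay above every Winnie library. At an adjusted p under 0.05 and 1.5-fold, 6 of the 26 passed, all of them higher, as did 6.99% of all genes in either direction. Serpina10 is among the 6, and here too it passed the filter only with its Winnie-Prolapse libraries. With the 3 libraries left out together, 72 of 17364 genes in all passed.

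Genes whose level followed F10 from library to library were sought after each gene's group means had been taken away, among 13600 genes with a mean log2 CPM of at least 1. The most like were 5830417I10Rik (Pearson's r = 0.75 over 22 libraries), Pygl (0.71), Pla2g7 (0.71), Ptafr (0.71) and Hk3 (0.71). Among the other clotting and plasminogen genes r was highest for Plaur (0.33) and Tfpi (0.30) and ran from -0.05 to 0.23 for the rest tested, F5 being below the level. These are descriptions over libraries that share a group structure and small F10 counts, and with Spearman's rho 1 of the 5 stayed among the 5 most like.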

How the data were processed

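Poly(A) RNA of distal colon from 22 mice was sequenced in paired ends from stranded libraries. The authors ran the RNAsik pipeline on GRCm38, and the submitters' processing notes name STAR and featureCounts, without their versions. The deposited table holds raw read counts per gene, as whole numbers with no normalization. The annotation release and strand setting were not given in the sources used here. Gene positions and exon lengths were taken from GENCODE M21 by Ensembl identifier.

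These counts went into edgeR 4.0.16 under R 4.3.3 (quasi-likelihood F test, TMM, filterByExpr), each comparison on its own 2 groups, with Benjamini-Hochberg adjustment over all genes tested. A gene was called at an adjusted p under 0.001 and at least 1.5-fold, the limits of the study's methods. CPM values are counts per library total, and log2 CPM had a prior count of 2. Replicates are separate mice by their labels and were numbered in sample order. Groups and their sizes follow the labels, which differ from the study's text in the number of Winnie libraries, and that text does not describe the Winnie-Prolapse group. No batch is named. Libraries of a group differed by a chi-square per degree of freedom of 28.8 or more, so no group held a duplicate; groups were not compared in this way. The test was checked on simulated data.

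The members and lists were chosen with earlier results of these data known. Named were the 9 genes, Plg, F7, F13a1 and Serpine2, at most 10 called pathway genes with a mean log2 CPM of at least 1, the 5 genes most like F10 and the leading gene of each marker list by its mean over all libraries. Of the genes this rule named, 1 is not reported here by name. Alternatives were library size without TMM, DESeq2 1.42.0, limma-voom (limma 3.58.1), the bias-adjusted fit, 2 other filters, a sex term, a joint fit of all groups, single sexes, an adjusted p under 0.05, removal of milk genes and leaving out each library. Leaving out 3 libraries together was chosen after seeing the data.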

Additional observations from a re-analysis of the deposited data

Results flagged for a closer look

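Of 27 pairs of a gene and a group, 6 held a library far from the rest, where the gap to the next library was large for the group's range (Dixon's test at 95%, which chance alone passes in about 1 of 20 groups). In C57BL/6, replicate 7 accounted for 3 of them, with Plaur highest at 12.3 CPM (next library 7.19 CPM), Plat highest at 16.6 CPM (next 8.82 CPM) and Procr lowest at 3.15 CPM (next 6.02 CPM). The same library had the lowest macrophage and monocyte and neutrophil marker sums of its group and the highest Muc2, the neutrophil sum resting on Ly6g, and their part in these values was not tested. In Winnie, Plaur was highest in replicate 2 at 50.1 CPM (next 22.5 CPM). In Winnie-Prolapse, replicate 4 was highest for Plaur at 202 CPM (next 99.2 CPM) and for Thbd at 48.2 CPM (next 29.2 CPM), and its endothelial and neutrophil marker sums were the highest of its group.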

How the results depend on the processing

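At an adjusted p under 0.05 and 1.5-fold, 2 of the 9 genes were called in Winnie against C57BL/6 and 4 in Winnie-Prolapse against Winnie, in place of 0, and 7 in Winnie-Prolapse against C57BL/6, in place of 5 (5981 of 17397 genes in all). For the other pathway genes it gave 1 higher and 3 lower in Winnie against C57BL/6, 9 higher and 3 lower in Winnie-Prolapse against C57BL/6 and 6 higher in Winnie-Prolapse against Winnie. DESeq2 gave 1 of the 9 in Winnie against C57BL/6 (1258 of 29288 genes in all), 4 in Winnie-Prolapse against Winnie (678 of 29471) and 7 in Winnie-Prolapse against C57BL/6 (5043 of 29816, with F3 and Plat added), and for the pathway genes 1 higher and 1 lower in Winnie against C57BL/6, 10 higher and 2 lower in Winnie-Prolapse against C57BL/6 and 3 higher in Winnie-Prolapse against Winnie. All 3 groups in one fit gave 1 of the 9 in each of Winnie against C57BL/6 (199 of 17769 genes in all) and Winnie-Prolapse against Winnie (42 of 17769). With fewer samples, females alone and males alone each called 1 of the 9 genes (Plaur) and 0 pathway genes higher and 0 lower in Winnie-Prolapse against C57BL/6, and females alone called 1 of the 9 against Winnie (54 of 17383 genes in all). Leaving out each library in turn gave 0 to 1 of the 9 and 0 to 1 pathway genes higher in Winnie against C57BL/6, and 5 to 7 pathway genes higher and 1 to 2 lower in Winnie-Prolapse against C57BL/6, with 2 lower without C57BL/6 replicate 7 or Winnie-Prolapse replicate 4. The 1 call of each kind in Winnie was made without Winnie replicate 5. In that fit 677 of 17413 genes were called in all, against 16 of 17289 with every library. The Plat difference between Winnie and C57BL/6, near 0, turned positive in males alone (0.64) and with the 3 libraries left out (0.33). Of the 3, only C57BL/6 replicate 7 takes part in this comparison, so the latter is the fit without that library. The difference ranged from -0.37 to 0.33 on leaving out each library, and the cause was not tested. Of the 5 genes most like F10, 1 stayed with Spearman's rho. No paired analysis was possible because the labels carry no replicate numbers shared between groups. Counts of F10 outside Winnie-Prolapse were 3 to 23 per library, and the limit of 3 counts covers counting error only.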
